A study of Mus musculus with 9 samples.

Results

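The genes of cholesterol and fatty acid synthesis were followed in RAW264.7 macrophages as a set of 33 genes, taken by symbol from a table of 55401 mouse genes. The set holds 20 genes of the sterol branch, 8 genes of the fatty acid branch and 5 genes that regulate both. All 33 were found in the table and all passed the filter on low values. RAW264.7 is a macrophage line derived from a tumour that Abelson murine leukemia virus induced in a male mouse, and every group consisted of these wild-type cells. The groups were cells given the solvent DMSO, cells given DMSO and LPS, called LPS here, and cells given LPS and skatole, called LPS + Ska. LPS is a component of the outer wall of bacteria that drives macrophages to the inflammatory M1 state, and skatole is an indole compound. Treatment lasted 24 h by the labels, which give no doses, and no group had skatole without LPS. The results text and a figure legend of the study also give 24 h, whereas its methods state a longer treatment for these RNA samples, so its length is not settled. Each group had 3 columns, numbered 5, 6 and 7, and nothing in the labels says that they came from separate cultures, so p-values measure the spread between columns.

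Cholesterol and other isoprenoids are built from acetyl units through mevalonate, and the first dedicated sterol intermediate is squalene. Fatty acids are built from the same acetyl units by carboxylation, chain assembly, elongation and desaturation. Both branches are transcribed under the SREBP factors, which are held in the endoplasmic reticulum by Scap and the Insig proteins when sterols are plentiful and released when sterols run low. In macrophages these lipids supply membranes, lipid mediators and the precursors of oxysterols.

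SREBP proteins bind the sterol regulatory element, often beside the factor NF-Y, so the promoters of the genes were searched for both sites. Windows from 250 bases before to 50 bases after the annotated start were found for 27 of the 33 genes, in RefSeq sequence of build GRCm38.p6, the patched form of mm10. The sterol regulatory element TCACNCCAC, searched on both strands, was present in 1 of these 27 genes, and in 1.37% of the 8696 genes tested that had a window. The CCAAT box, the site of NF-Y, was searched as CCAAT on both strands and was present in 22 of the 27 genes. It was present in 43.7% of the 8696 genes tested. Counted by window instead of by gene, CCAAT was found in 65.7% of the 35 windows of the members and in 38.5% of the 11058 windows of genes tested. These letters are short, and a match is a description of the window and not a bound site. Only exact matches inside the windows were counted, so sites with other letters or outside the windows were not seen. Promoters of 4 genes are printed 5′ to 3′ as the 250 bases before the start, with matches in capitals and ATTGG as the reverse strand of CCAAT. Hmgcs1 (chr13:119690101-119690350, plus strand) is shown for the single sterol regulatory element, TCACCCCAC, whose first base lies at -137. Mvk (chr5:114444019-114444268, plus strand) is shown as a gene that fell with LPS and has 5 CCAAT matches. Ggps1 (chr13:14063489-14063738, minus strand) is shown as the member that rose with LPS, and Fasn (chr11:120824548-120824797, minus strand) as a gene of the fatty acid branch. Ggps1 and Fasn had 3 CCAAT matches each, as did the printed part of Hmgcs1. In Fasn the run CCAATTGG holds overlapping matches on both strands.
Hmgcs1: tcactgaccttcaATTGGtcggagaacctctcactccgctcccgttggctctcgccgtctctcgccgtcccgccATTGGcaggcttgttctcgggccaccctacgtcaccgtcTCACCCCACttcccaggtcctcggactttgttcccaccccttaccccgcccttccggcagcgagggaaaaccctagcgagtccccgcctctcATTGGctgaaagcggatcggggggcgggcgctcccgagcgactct
Mvk: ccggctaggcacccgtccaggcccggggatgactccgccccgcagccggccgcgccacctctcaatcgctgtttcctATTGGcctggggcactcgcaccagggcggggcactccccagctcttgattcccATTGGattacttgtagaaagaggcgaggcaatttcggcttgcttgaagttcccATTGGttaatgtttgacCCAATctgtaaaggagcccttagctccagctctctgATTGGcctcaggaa
Ggps1: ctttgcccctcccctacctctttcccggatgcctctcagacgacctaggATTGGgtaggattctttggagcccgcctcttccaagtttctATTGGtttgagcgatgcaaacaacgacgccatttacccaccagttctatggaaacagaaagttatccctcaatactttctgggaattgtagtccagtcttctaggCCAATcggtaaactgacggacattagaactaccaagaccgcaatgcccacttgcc
Fasn: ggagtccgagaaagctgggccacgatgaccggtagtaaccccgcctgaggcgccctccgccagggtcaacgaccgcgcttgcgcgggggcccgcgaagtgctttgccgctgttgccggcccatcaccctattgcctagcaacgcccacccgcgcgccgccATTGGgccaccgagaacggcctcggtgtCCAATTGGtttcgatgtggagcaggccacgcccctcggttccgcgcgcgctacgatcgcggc

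Values are TPM, the share of a library that a gene takes after correction for transcript length, on a fixed total. TPM keeps no sequencing depth, so depth is unknown and a change in total RNA per cell cannot be seen. Column totals ran from 999895 to 1000145 TPM. In LPS and in LPS + Ska, replicate 5 was the mean of replicates 6 and 7 in all 17950 and all 17658 genes that were above 0 in every column of the group, to within 5e-06 TPM. In DMSO this held for at most 0.0636% of genes. A gene thus has no more than 2 independent values in a treated group. In 3186 of the 4042 genes of LPS with a column at 0, a column lay away from replicate 5 by 2 times its value (tolerance 0.0001), the pattern of columns set at the mean of a pair of values and at that mean plus and minus their whole difference. This is an inference that no source states. Counts are also given with values recovered on it, at replicate 5 plus and minus 0.5 times the distance of replicates 6 and 7 from it, and with replicates 6 and 7 alone as the treated columns. Of 8 macrophage markers, 7 were above the filter in these cells, among them Cd68 at 574 to 857 TPM and Spi1 at 211 to 411 TPM, and Mrc1 was at most 0.134 TPM. The 17 markers of fibroblasts, epithelium, T cells and B cells were each at most 0.672 TPM in every column. Of 6 LPS response genes, 5 rose with LPS.

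Some genes of both branches were lower with LPS, and the share in the sterol branch was near that of all genes. A gene was called changed when its limma adjusted p was below 0.05 and its fold change was above 1.5 or below 0.67 on log2(TPM + 1). With LPS compared with DMSO, 10 of the 33 genes fell, whereas 20.0% of the 12819 genes tested were called lower. By branch these were 5 of 20 sterol genes (25%), 3 of 8 fatty acid genes (37.5%) and 2 of 5 regulators (40%). The 10 were Mvk, Pmvk, Mvd, Ebp and Dhcr7 of the sterol branch, Fasn, Fads1 and Fads2 of the fatty acid branch, and the regulators Srebf1 and Srebf2. Ggps1 alone was called higher among the 33, whereas 12.7% of all genes tested were. By the adjusted p alone, 18 members were lower and 5 were higher, against 34.2% and 26.2% of all genes. With columns scaled by the median ratio to a common reference, 8 members were called lower and 3 higher, the calls of Fasn and Srebf2 being lost and Idi1 and Elovl6 being gained. The same scaling turned the split over all genes from 1630 higher and 2559 lower into 2001 and 2101. With the GC trend removed, as described further on, 12.1% of the members were called lower, against 13.8% of all genes.

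Skatole added to LPS was accompanied by differences mostly inside the fold limits, with 6 of the 8 fatty acid genes lower by the adjusted p alone. None of these passed when the tied replicate 5 of both treated groups was left out, a fit in which few genes of any kind passed. In that fit 265 of the 12819 genes tested were lower by the adjusted p, against 2524 in the fit of all 9 columns. With LPS + Ska compared with LPS, Acaca was the 1 member called lower and none was called higher, against 6.14% and 3.35% of all genes. By the adjusted p alone, 11 members were lower and 0 were higher, against 19.7% and 8.89% of all genes. Beside the 6 fatty acid genes (Acaca, Fasn, Scd2, Elovl5, Elovl6 and Fads1), these were 3 of the 20 sterol genes (Acat2, Cyp51 and Nsdhl) and 2 of the 5 regulators (Srebf2 and Scap). With median-ratio scaling the counts by the adjusted p alone were 10 lower and 1 higher, against 12.8% and 14.5% of all genes. With the recovered values they were 10 lower and 0 higher, against 1630 lower and 756 higher of all genes. With replicates 6 and 7 alone as the treated columns, 0 members passed limma's adjusted p in either direction at this step, against 265 lower and 186 higher of all genes, and Acaca was at -0.67 (limma adjusted p = 0.130). By limma's unadjusted p below 0.05, 10 members were lower and 0 higher in that fit, 5 of them fatty acid genes, against 14.5% of all genes lower. Leaving out LPS + Ska replicate 5, 6 or 7 gave 8, 14 and 10 members lower by the adjusted p alone. The shares of all genes in these 3 fits are not given here, so a shift of the members alone cannot be read from them. Compared with DMSO, LPS + Ska had 13 members called lower and 1 called higher, against 25.3% and 11.4% of all genes, and by the adjusted p alone 21 lower and 3 higher, against 40.6% and 22.7%. The comparisons share columns, so their counts are not independent of each other. The adjusted p values of single genes given below are from the fit of all 9 columns.

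**Figure D1:**
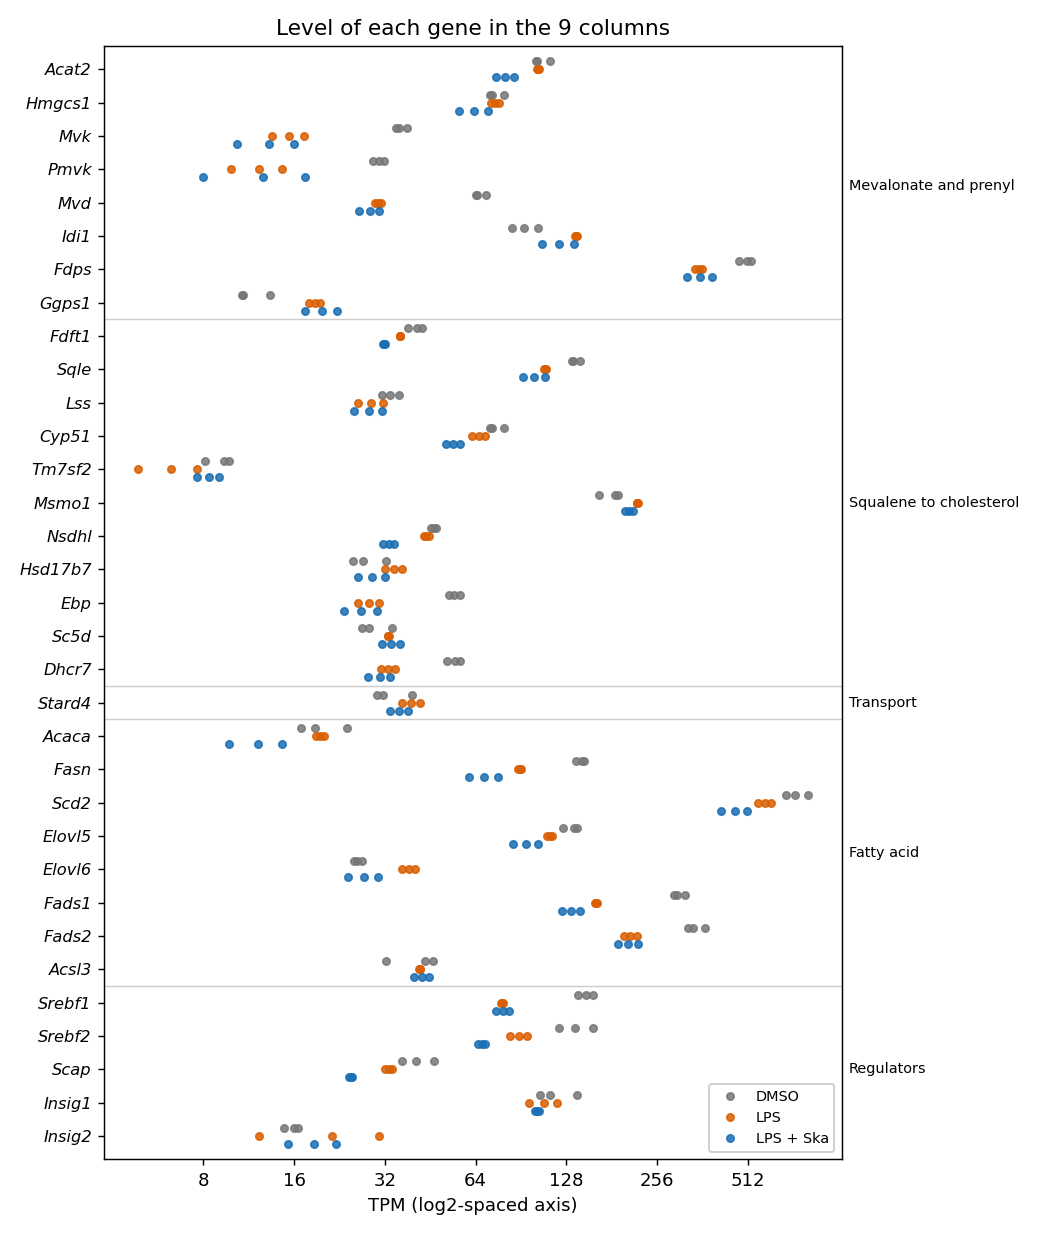
TPM of the 33 genes in the 9 columns on a log2-spaced axis, in pathway order, with grey points for DMSO, orange for LPS and blue for LPS + Ska. Mvk, Pmvk and Mvd show treated columns below every DMSO column, and Elovl6 shows LPS columns above those of both other groups.

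In the mevalonate part, 3 of 8 genes fell with LPS (37.5%, against 20.0% of all genes), and they encode consecutive enzymes. Their transcripts have a GC content of 56.3 to 59.0%. In the range of 55 to 60%, 45.9% of all genes were called lower, as described further on. Values are given in the order of replicates 5, 6 and 7, and changes as log2 fold change ± SE. Mvk, mevalonate kinase, had 35.6, 37.8 and 34.9 TPM with DMSO, 15.4, 13.5 and 17.3 with LPS, and 13.2, 10.3 and 16.0 with LPS + Ska. Every treated column was below every DMSO column, and the treated groups overlapped. The change with LPS was -1.19 ± 0.14 (SE, log2, limma adjusted p = 9.27e-05). Pmvk, which adds the next phosphate, had 29.2, 31.9 and 30.6 TPM with DMSO, 12.2, 9.85 and 14.5 with LPS, and 12.6, 7.95 and 17.3 with LPS + Ska. Its change with LPS was -1.27 ± 0.23 (limma adjusted p = 0.00108), again with no overlap with DMSO. Mvd, which decarboxylates the product to isopentenyl diphosphate, had 64.6, 64.2 and 69.4 TPM with DMSO, 30.3, 29.6 and 30.9 with LPS, and 28.5, 26.2 and 30.7 with LPS + Ska. Its treated columns overlapped each other and lay below DMSO, with a change of -1.10 ± 0.07 with LPS (limma adjusted p = 1.96e-06). For LPS + Ska compared with LPS the 95% intervals were -0.54 to 0.10 for Mvk, -0.51 to 0.52 for Pmvk and -0.25 to 0.07 for Mvd.

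The genes of the steps before and after these enzymes were not called lower. Acat2, an acetoacetyl-CoA thiolase, had 112.4, 101.4 and 102.4 TPM with DMSO, 103.2, 102.5 and 104.0 with LPS, and 80.1, 85.5 and 74.6 with LPS + Ska. Hmgcs1, which makes HMG-CoA, had 72.7, 71.3 and 79.5 TPM with DMSO, 74.1, 76.5 and 71.7 with LPS, and 63.4, 70.4 and 56.3 with LPS + Ska. Both overlapped between DMSO and LPS, with changes of -0.03 and -0.01, and both were below LPS in every LPS + Ska column. Acat2 was lower in LPS + Ska than in LPS by the adjusted p alone (log2 -0.36 ± 0.06, limma adjusted p = 0.00361), and Hmgcs1 was not (-0.23 ± 0.08, limma adjusted p = 0.0690). Idi1, which isomerises isopentenyl diphosphate, had 84.7, 92.6 and 103.1 TPM with DMSO, 137.7, 138.9 and 136.5 with LPS, and 120.7, 135.1 and 106.4 with LPS + Ska. Every LPS column of Idi1 was above every DMSO column, and its change of 0.56 ± 0.09 (limma adjusted p = 0.000707) lay just inside the fold limit. Fdps, farnesyl diphosphate synthase, was the most abundant member of the sterol branch, at 506.7, 476.2 and 522.0 TPM with DMSO, 351.5, 360.5 and 342.4 with LPS, and 354.5, 320.1 and 388.9 with LPS + Ska. Its change with LPS of -0.51 ± 0.07 (limma adjusted p = 0.000233) also lay inside the fold limit, with no overlap with DMSO. Ggps1, which makes the geranylgeranyl diphosphate used to lipidate proteins, had 10.8, 10.8 and 13.3 TPM with DMSO, 18.7, 17.9 and 19.5 with LPS, and 19.8, 22.3 and 17.4 with LPS + Ska. Every treated column of Ggps1 was above every DMSO column, and the treated groups overlapped. It rose by 0.65 ± 0.11 with LPS (limma adjusted p = 0.000838) and by 0.72 ± 0.11 with LPS + Ska compared with DMSO (limma adjusted p = 0.000385). With the GC trend removed, as described further on, the changes with LPS were -0.0009 for Acat2, -0.37 for Hmgcs1, 0.13 for Idi1, -0.43 for Fdps and 0.16 for Ggps1. These lay closer to those of Mvk (-0.80), Pmvk (-0.85) and Mvd (-0.57), and Mvd was not called in that fit.

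From squalene to cholesterol, 2 of 11 genes fell with LPS, a share of 18.2% that is near the 20.0% of all genes, and none was called between LPS + Ska and LPS. Ebp, the sterol isomerase, had 52.1, 56.7 and 54.3 TPM with DMSO, 28.3, 26.0 and 30.5 with LPS, and 26.7, 23.4 and 30.0 with LPS + Ska. Dhcr7, the reductase that yields cholesterol, had 54.8, 51.4 and 56.7 TPM with DMSO, 32.7, 34.5 and 30.9 with LPS, and 30.7, 33.3 and 28.1 with LPS + Ska. Both were lower in every treated column than in any DMSO column, by -0.92 ± 0.10 (limma adjusted p = 3.78e-05) and -0.71 ± 0.08 (limma adjusted p = 5.50e-05) with LPS, and both overlapped between the treated groups. Msmo1, a methylsterol monooxygenase, was higher with LPS inside the fold limit, with 164.6, 189.5 and 186.0 TPM with DMSO and 219.9, 220.4 and 219.4 with LPS (0.29 ± 0.06, limma adjusted p = 0.00232). Sqle, squalene epoxidase, a rate-limiting enzyme of the branch, had 134.6, 133.9 and 142.4 TPM with DMSO, 108.6, 109.1 and 108.0 with LPS, and 100.05, 108.4 and 91.7 with LPS + Ska. Its change with LPS was -0.33 ± 0.06 (limma adjusted p = 0.00172), and DMSO did not overlap with either treated group.

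Nsdhl and Cyp51, which take part in removing methyl groups from the sterol ring, were the genes of this stretch that were lower with skatole by the adjusted p alone. Nsdhl had 45.3, 46.4 and 47.2 TPM with DMSO, 43.9, 43.0 and 44.8 with LPS, and 32.9, 34.2 and 31.5 with LPS + Ska. The LPS + Ska columns of Nsdhl lay below all others, with a difference from LPS of -0.41 ± 0.06 (limma adjusted p = 0.00119). Cyp51 had 71.2, 72.5 and 79.2 TPM with DMSO, 65.6, 62.2 and 68.9 with LPS, and 53.9, 56.8 and 51.0 with LPS + Ska, a difference from LPS of -0.28 ± 0.07 (limma adjusted p = 0.0156). Tm7sf2, a sterol reductase and the least abundant member at 4.85 to 9.71 TPM, differed in the other direction between LPS + Ska and LPS, by 0.38 ± 0.15 (limma adjusted p = 0.0805). Of the rest, Fdft1, Lss, Hsd17b7, Sc5d and the sterol carrier Stard4 lay between 25.0 and 42.4 TPM in every column. Their changes with LPS ran from -0.21 for Lss to 0.28 for Hsd17b7.

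The fatty acid branch had fewer genes and higher levels. Scd2, a stearoyl-CoA desaturase, had 686.1, 733.6 and 810.4 TPM with DMSO, 581.6, 554.4 and 608.8 with LPS, and 462.8, 509.5 and 416.1 with LPS + Ska. The groups did not overlap, and the steps were -0.35 ± 0.09 with LPS (limma adjusted p = 0.00569) and -0.33 ± 0.09 with skatole added (limma adjusted p = 0.0182). Neither step passed the fold limit, and LPS + Ska compared with DMSO did (-0.68 ± 0.09, limma adjusted p = 9.51e-05), a call that was lost with median-ratio scaling (-0.49). Fasn, fatty acid synthase, had 144.5, 137.4 and 146.1 TPM with DMSO, 89.5, 88.3 and 90.6 with LPS, and 68.3, 76.1 and 60.6 with LPS + Ska. It fell by 0.67 ± 0.08 on the log2 scale with LPS (limma adjusted p = 7.39e-05), and the further difference with skatole was -0.39 ± 0.08 (limma adjusted p = 0.00607), with no overlap between any groups. Fads1, a desaturase of polyunsaturated fatty acids, had 290.4, 296.8 and 315.4 TPM with DMSO, 160.3, 159.4 and 161.3 with LPS, and 132.9, 142.3 and 123.4 with LPS + Ska. It showed the same order without overlap, with -0.90 ± 0.06 for LPS (limma adjusted p = 2.56e-06) and -0.27 ± 0.06 for skatole added (limma adjusted p = 0.0102).

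Fads2, the desaturase that acts before Fads1, had 323.8, 336.7 and 369.7 TPM with DMSO, 208.5, 198.2 and 218.7 with LPS, and 204.8, 220.2 and 189.4 with LPS + Ska. It fell by 0.72 ± 0.07 with LPS (log2, limma adjusted p = 3.24e-05), the treated groups overlapped, and the 95% interval of their difference was -0.19 to 0.14. The difference between Fads1 and Fads2 at this step was not tested. Acaca, acetyl-CoA carboxylase and the committing step of the branch, had 16.9, 18.7 and 24.0 TPM with DMSO, 19.5, 19.0 and 20.1 with LPS, and 12.1, 14.6 and 9.73 with LPS + Ska. All LPS + Ska columns were below all others, and DMSO and LPS overlapped. Acaca differed between LPS + Ska and LPS by -0.66 ± 0.15 (limma adjusted p = 0.0120). It fell short of the fold limit with median-ratio scaling (-0.56, limma adjusted p = 0.0152), with the trend on transcript length removed (-0.44, limma adjusted p = 0.0183), and without LPS + Ska replicate 7 (-0.52, limma adjusted p = 0.0283), and with replicates 6 and 7 alone its adjusted p missed the limit. Its transcript of 9513 nucleotides is among the longest of the set.

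The elongases had changes of opposite sign with LPS. Elovl6, which elongates saturated chains, had 25.3, 25.8 and 26.9 TPM with DMSO, 38.3, 36.5 and 40.1 with LPS, and 27.2, 30.3 and 24.1 with LPS + Ska. The LPS columns stood above both other groups, which overlapped. The change with LPS was 0.54 ± 0.09 (limma adjusted p = 0.000529) and the difference of LPS + Ska from LPS was -0.48 ± 0.09 (limma adjusted p = 0.00370), both inside the fold limit. LPS + Ska compared with DMSO gave 0.06, with a 95% interval of -0.14 to 0.25. Elovl5, which elongates polyunsaturated chains, had 124.3, 135.5 and 139.0 TPM with DMSO, 112.4, 114.3 and 110.5 with LPS, and 94.0, 102.8 and 85.2 with LPS + Ska. Its groups did not overlap, with a change of -0.24 ± 0.07 with LPS (limma adjusted p = 0.0193) and -0.26 ± 0.07 with skatole added (limma adjusted p = 0.0283). Acsl3, which activates fatty acids for lipid assembly, overlapped in all groups, at 32.3 to 46.1 TPM.

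Among the regulators, Srebf1 and Srebf2 both fell with LPS, and Srebf2 alone of the pair was lower with skatole by the adjusted p, a contrast between genes that was not tested. Srebf1, whose protein mainly drives fatty acid genes, had 139.6, 148.1 and 156.1 TPM with DMSO, 78.5, 79.1 and 77.9 with LPS, and 78.5, 74.8 and 82.2 with LPS + Ska. It fell by 0.90 ± 0.06 with LPS (log2, limma adjusted p = 2.11e-06), and its difference between LPS + Ska and LPS had a 95% interval of -0.13 to 0.13. Srebf2, whose protein mainly drives sterol genes, had 136.7, 120.6 and 156.3 TPM with DMSO, 88.8, 82.9 and 94.6 with LPS, and 67.1, 68.8 and 65.3 with LPS + Ska. No groups overlapped, with -0.62 ± 0.09 for LPS (limma adjusted p = 0.000298) and -0.40 ± 0.09 for skatole added (limma adjusted p = 0.0114). The LPS call of Srebf2 was lost with median-ratio scaling (-0.53) and without DMSO replicate 7 (-0.53) or LPS replicate 6 (-0.58). Scap, the escort of the SREBP proteins, had 36.4, 40.6 and 46.7 TPM with DMSO, 32.96, 32.1 and 33.9 with LPS, and 24.6, 24.9 and 24.3 with LPS + Ska. Its difference between LPS + Ska and LPS was -0.41 ± 0.09 (limma adjusted p = 0.00848). Insig1 and Insig2, which hold Scap back, were not called in any comparison. Insig1 lay at 96.3 to 138.8 TPM, and Insig2 ranged from 12.2 to 30.5 TPM within LPS alone, a range that covered all its other columns.

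**Figure D2:**
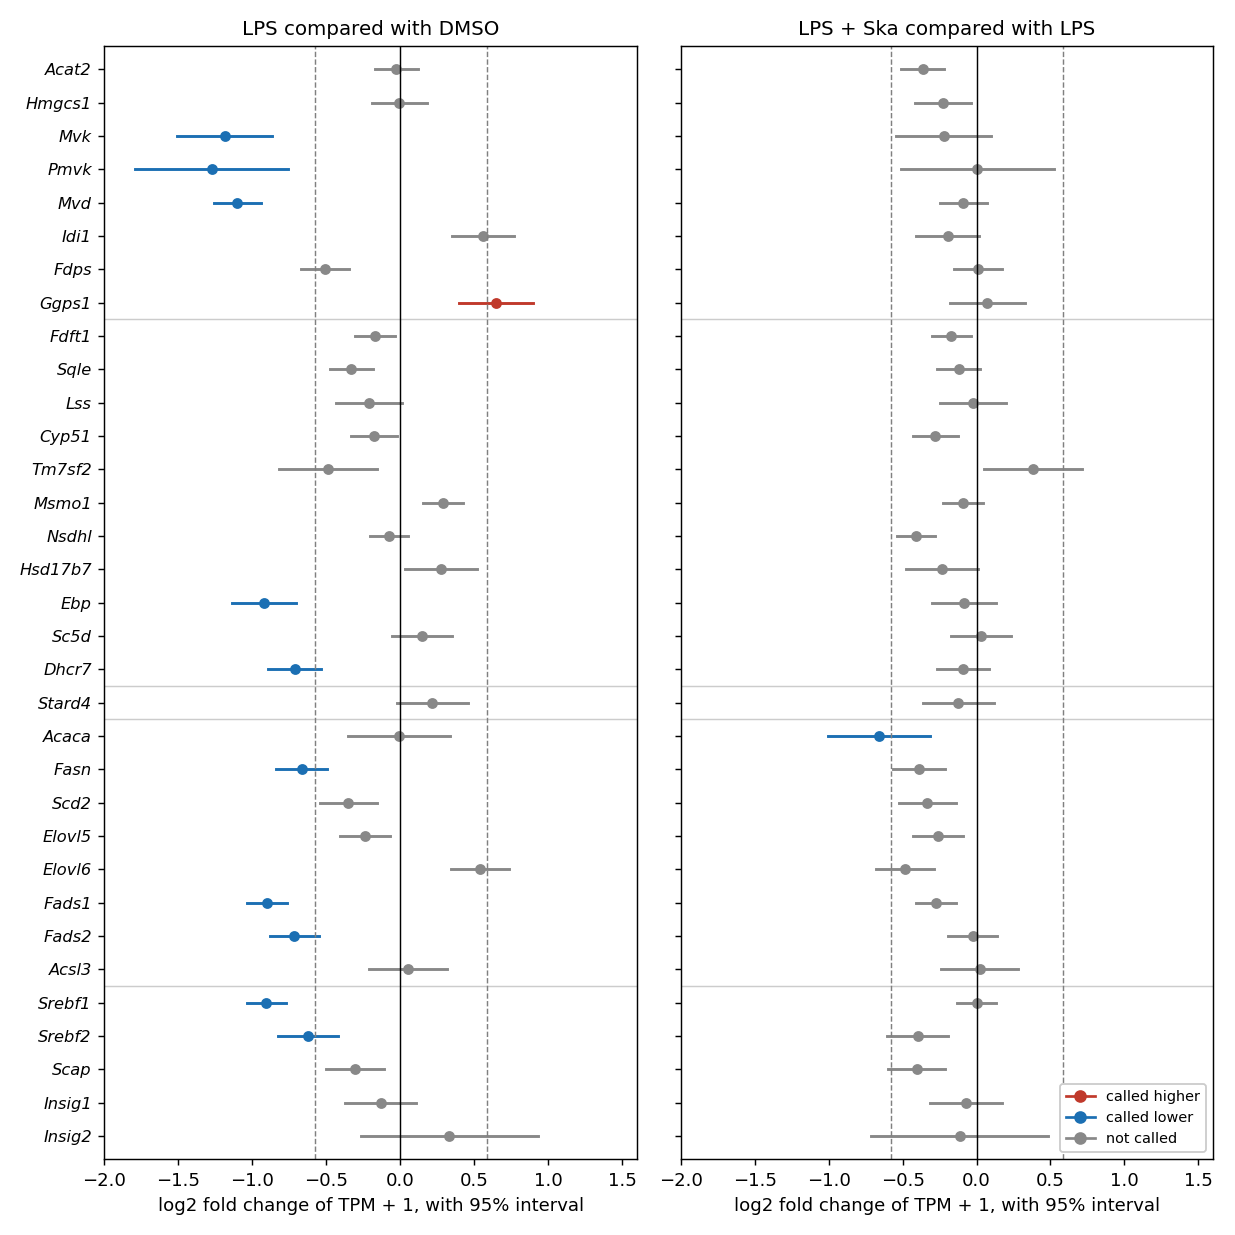
Log2 fold change of TPM + 1 of each gene with its 95% interval from limma, for LPS compared with DMSO on the left and LPS + Ska compared with LPS on the right. Dashed lines mark the fold limits, red and blue mark genes called higher and lower, and the right panel has Acaca as its single called gene.

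The sterol and fatty acid branches were set side by side as a description, with no test, since genes of a branch are not replicates. With LPS compared with DMSO, the median log2 change was -0.17 over the 20 sterol genes, -0.29 over the 8 fatty acid genes and -0.31 over the 5 regulators, and -0.07 over all genes tested. With the GC trend removed, as described further on, these were -0.32, -0.32, -0.14 and -0.09, so that the order of branches did not hold. With LPS + Ska compared with LPS, the medians in the same order were -0.11, -0.30 and -0.11, and -0.10 over all genes. The sterol median thus sat near that of all genes at the skatole step and the fatty acid median sat below it. With median-ratio scaling the medians of this step were 0.00 for all genes, 0.00 for the sterol branch and -0.20 for the fatty acid branch. Compared with DMSO, LPS + Ska gave medians of -0.37, -0.68 and -0.71, and -0.18 over all genes. With median-ratio scaling these became -0.18, -0.49, -0.52 and 0.00, and with the GC trend removed they became -0.39, -0.62, -0.26 and -0.20.

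Summed TPM of the sterol branch was 1640 ± 64.4 with DMSO, 1419 ± 0.825 with LPS and 1310 ± 14.4 with LPS + Ska (mean ± SD, n = 3 columns, tied in the treated groups). The sum of the fatty acid branch was 1750 ± 118, 1252 ± 40.2 and 1045 ± 95.9 TPM in the same order. The regulators summed to 461 ± 45.4, 329 ± 26.8 and 291 ± 3.56 TPM. The fatty acid sum of LPS + Ska differed from that of LPS by -16.6%, and the sterol sum by -7.63%. With LPS the sums differed from DMSO by -28.5% and -13.5%. Fdps accounted for 67.8% of the net sterol difference with LPS, which Idi1 and Msmo1 offset by 44.2 and 39.9 TPM. Scd2, Fads1 and Fads2 accounted for 32.5%, 28.2% and 27.1% of the fatty acid difference with LPS, and Scd2 for 57.3% of that with skatole added. The sterol difference with skatole added was spread over more genes, with Acat2 at 21.4%, Idi1 at 15.7% and Msmo1 at 12.2%, while Fdps differed in the other direction by 3.03 TPM. With median-ratio scaling the log2 ratio of the sterol sums, LPS + Ska over LPS, went from -0.11 to -0.01, and that of the fatty acid sums from -0.26 to -0.16.

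**Figure D3:**
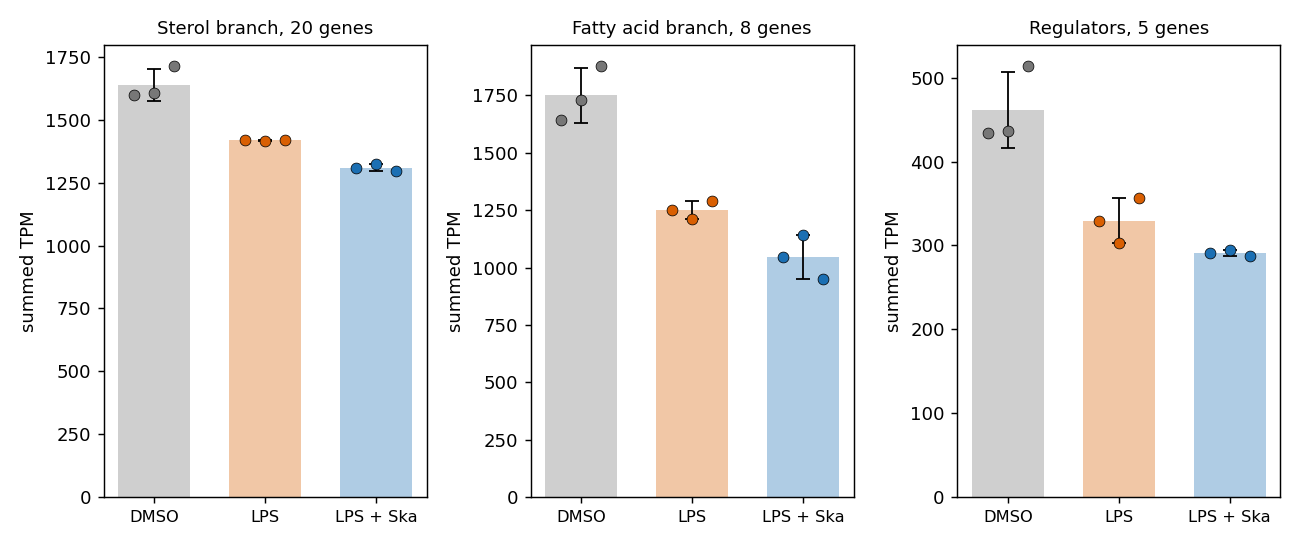
Summed TPM of the 20 sterol genes, 8 fatty acid genes and 5 regulators in each group, with bars for means, error bars for the SD and points for the 3 columns. Every treated column is below every DMSO column in the 3 panels, and the fatty acid sum is 949 to 1140 TPM in LPS + Ska and 1212 to 1292 TPM in LPS.

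The LPS response of the members was ordered along the GC content of their transcripts. Across the 33 genes, Spearman's rho between the log2 change with LPS and the GC content of the longest transcript was -0.86, and within the 20 sterol genes it was -0.91. Across the 12805 genes tested that had a transcript it was -0.55, so a trend in this direction was not particular to these genes. These points share the same 6 columns and are not independent. The 10 genes that fell had a median GC content of 56.6% (50.9 to 59.0%), the 22 genes not called had 46.1%, and Ggps1 had 40.1%. In the range of 55 to 60% GC, 6 of 7 members were called lower, as were 45.9% of the 2178 genes of that range, and the medians were -0.90 and -0.54. In the range of 40 to 45% GC, none of 10 members was called lower, as were 3.93% of 2620 genes, and the medians were 0.25 and 0.30. For LPS + Ska compared with LPS, rho was -0.09 across the members and -0.03 across all genes.

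The GC trend of every column was then removed by a local regression, and 4 of the 10 genes were still called lower with LPS, at -0.80 for Mvk, -0.85 for Pmvk, -0.83 for Ebp and -0.74 for Fads1. These 4 of 33 members stood against 13.8% of the 12805 genes called lower in that fit, a share near that of the members. The calls of Mvd (-0.57), Dhcr7 (-0.51), Fads2 (-0.43), Srebf1 (-0.39), Fasn (-0.18) and Srebf2 (-0.14) were lost, as was that of Ggps1 (0.16). Scap, not called, went from -0.31 to 0.23, and Msmo1, also not called, went from 0.29 to 0.02. In that fit, rho between the LPS change and GC content was -0.02 across all genes and -0.41 across the members. It was -0.73 within the sterol branch, -0.29 within the fatty acid branch and 0.1 within the regulators. The removal thus left part of the members' order along GC content in place. For Mvd, Dhcr7, Fads2 and Srebf1 the limma adjusted p stayed between 7.00e-05 and 0.00372. For Fasn and Srebf2 it was 0.185 and 0.299. Compared with DMSO, LPS + Ska had 13 members called lower with the trend removed, against 19.7% of all genes, of which 9 were also called before, with Fads2, Scap, Srebf1 and Srebf2 lost and Hmgcs1, Cyp51, Nsdhl and Elovl5 gained. The call of Acaca in LPS + Ska compared with LPS remained. Within LPS + Ska, the deviations of replicates 6 and 7 from their group mean also followed GC content, with rho of -0.34 and 0.34 over all genes. Replicate 5 is the mean of both, so these deviations mirror each other and the rho values are not separate observations. Deviations in the other columns gave -0.08 to 0.13. Whether a library effect or the cells gave the GC trend was not tested.

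**Figure D4:**
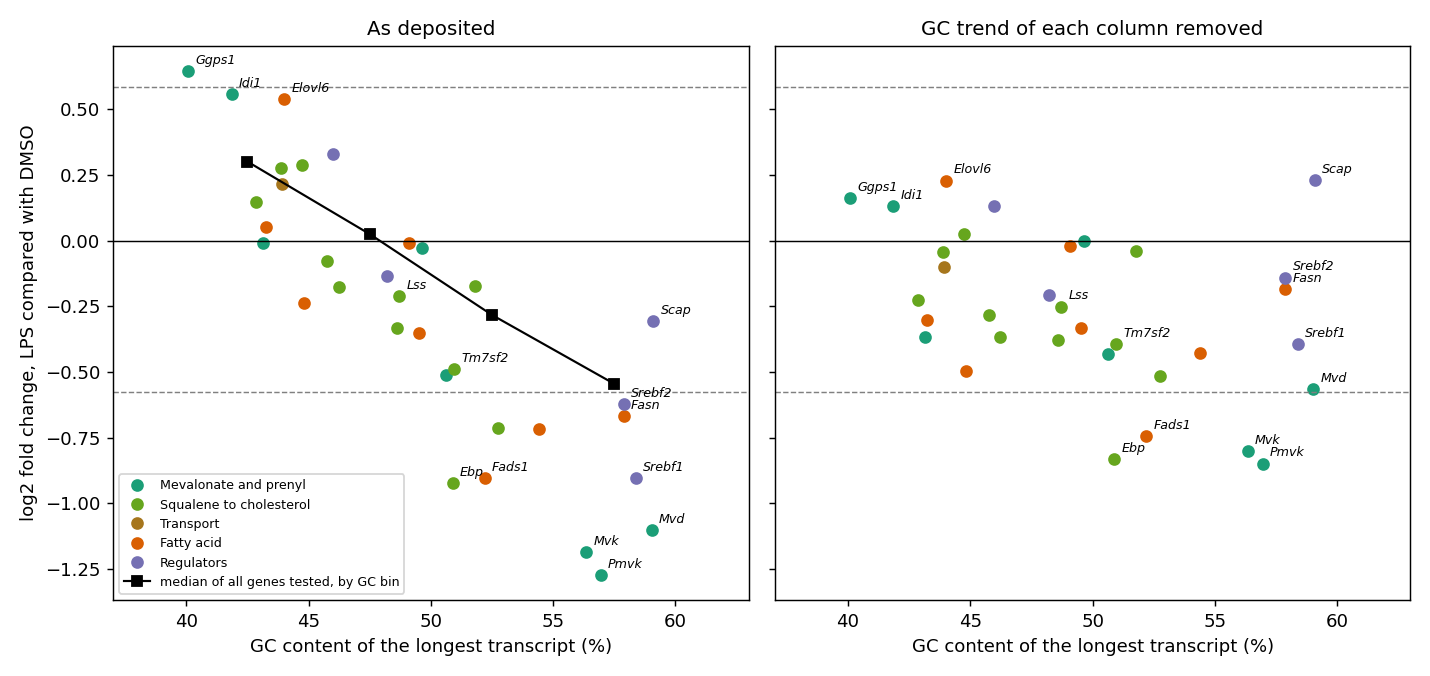
Log2 fold change with LPS compared with DMSO against the GC content of the longest transcript for the 33 genes, as deposited on the left and with the GC trend of each column removed on the right, with dashed lines at the fold limits. Black squares are medians of all genes tested in GC bins, from 0.30 at 40 to 45% GC to -0.54 at 55 to 60% GC, and in the right panel Mvk, Pmvk, Ebp and Fads1 remain below the lower limit.

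Other genes of the same pathways rose or fell with LPS. Of 5 further sterol synthesis genes, 1 rose and 1 fell with LPS. Nus1, a subunit of the prenyltransferase of dolichol synthesis, rose by 0.84 ± 0.07 (log2, limma adjusted p = 7.83e-06), and Cyb5r3, a reductase that passes electrons to cytochrome b5, fell by 0.93 ± 0.05 (limma adjusted p = 1.08e-06). Of 16 further fatty acid genes 14 were tested, and 2 rose and 4 fell with LPS. Slc25a1, which exports the citrate that supplies acetyl units, fell by 0.76 ± 0.07 (limma adjusted p = 1.43e-05), and the synthetase Acsl4 rose by 1.12 ± 0.09 (limma adjusted p = 8.83e-06). Of 6 further genes of SREBP processing, the protease gene Mbtps2 rose by 0.89 ± 0.10 (limma adjusted p = 4.88e-05) and none fell. Of 11 genes of sterol uptake, efflux and oxysterol sensing 10 were tested, and 1 rose and 5 fell. Among these, the oxysterol receptor genes Nr1h2 and Nr1h3 fell by 0.94 ± 0.06 (limma adjusted p = 2.83e-06) and 0.92 ± 0.15 (limma adjusted p = 0.000476), and the cholesterol exporter Abca1 rose by 0.81 ± 0.13 (limma adjusted p = 0.000568). In all, 5 of these 35 tested genes rose and 10 fell with LPS, against 12.7% and 20.0% of all genes. None of the 35 was called between LPS + Ska and LPS. By the adjusted p alone, 2 of the 35 were higher and 9 were lower at that step, against 8.89% and 19.7% of all genes.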

How the data were processed

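Total RNA of the RAW264.7 groups was sequenced, and the authors deposited TPM per gene and column. The submitters' processing notes name fastp 0.20.1, HISAT2 2.2.1, StringTie 2.0 and mm10. The methods state no step that ties replicate 5 to replicates 6 and 7, and the deposited columns were used as they are. Symbols matched 55141 of 55401 identifiers. Length and GC content are those of the longest GENCODE transcript.

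The 12819 genes whose TPM averaged 1 or more over all columns were fitted with limma 3.58.1 in R 4.3.3 on log2(TPM + 1), a pseudocount of 1, with eBayes and a trend on intensity, with all 9 columns and group alone, and Benjamini-Hochberg adjustment over all genes tested. Fold changes on this scale understate those of low genes. The script was tested on simulated data. The 33 members and the other lists were chosen with earlier results of these data known, and every member was named. Genes of the other lists were named after their values were seen, and some are not reported here. No p was given for a branch. Alternatives were other scalings, filters, pseudocount, call rule and fits, a replicate block, removal of GC or length trends (loess, span 0.3), recovered values (replicate 5 plus and minus 0.5 times the distance of replicates 6 and 7 from it) and each column left out. Alternatives combined with the adjusted p alone, and the fit without replicate 5 of both treated groups, were chosen after seeing the data. Figures were drawn with matplotlib 3.10.9.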

Additional observations from a re-analysis of the deposited data

How the results depend on the processing

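No fold change of a called gene turned its direction under any alternative. Counts of called members, as lower and higher, were 10 and 1 for LPS compared with DMSO, 1 and 0 for LPS + Ska compared with LPS, and 13 and 1 for LPS + Ska compared with DMSO. They were the same with no filter, a stricter filter at 5 TPM, a pseudocount of 0.1, recovered values, a fit without the intensity trend and a fit of just the groups compared. For LPS compared with DMSO, median-ratio scaling gave 3 higher, rescaling after leaving out ribosomal protein and mitochondrial-genome genes gave 2 higher, and removal of the GC trend gave 0 higher and 4 lower. For LPS + Ska compared with LPS, median-ratio scaling, removal of the length trend and replicates 6 and 7 alone as treated columns each gave 0 lower. For LPS + Ska compared with DMSO, removal of the GC trend gave 0 higher, and median-ratio scaling gave 9 lower (Acaca, Scd2, Fads2 and Scap lost). By the adjusted p alone the counts were 18 lower and 5 higher, 11 lower, and 21 lower and 3 higher. In alternatives of that rule, removal of the GC trend gave 1 higher for LPS and 0 higher for LPS + Ska compared with DMSO, and median-ratio scaling gave 1 higher for LPS + Ska compared with LPS and 7 higher for LPS + Ska compared with DMSO. With replicates 6 and 7 alone, that rule gave 0 lower for LPS + Ska compared with LPS. With the recovered values, a fit of equally few columns, it gave 10 lower. The cause of these differences between alternatives was not tested.

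With each column left out in turn, LPS gave 9 to 11 lower and 1 to 2 higher (2 without DMSO replicate 7, Idi1 gained, or LPS replicate 6, Insig2 gained). LPS + Ska compared with LPS gave 0 to 1 lower (0 without LPS + Ska replicate 7), and LPS + Ska compared with DMSO gave 12 to 13 lower. With the replicate number as a block the counts were 10 lower and 1 higher, 1 and 0, and 13 and 1. By the adjusted p alone the block gave 16 lower and 4 higher, 11 lower, and 20 lower and 3 higher. The shares of all genes with the block are not given here, so a shift of the members alone cannot be read from these counts. Deviations of same-numbered columns correlated at 0.38, 0.15 and 0.13 between LPS and LPS + Ska, where 3 of 3 columns of LPS + Ska and 2 of 3 of LPS correlated best with their own number. Replicates 6 and 7 of these groups lie on opposite sides of replicate 5, so these are not separate values, and whether the numbers pair them cannot be told. Against DMSO the correlations were -0.032 to 0.080 and 1 of 3 columns of either treated group correlated best with its own number. No pairing with DMSO was thus seen, and so few columns, tied in the treated groups, cannot exclude it.

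Depth is unknown, so counting error cannot be given. A treated group holds no more than 2 independent values per gene, and the spread behind every p-value is shared over the groups. TPM are shares, so median-ratio scaling moved the median of all genes for LPS + Ska compared with DMSO from -0.18 to 0.00, and that split from 1457 higher and 3243 lower to 2212 and 2246. At the skatole step the split of all genes went from 429 higher and 787 lower to 595 and 540.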
